A study of Homo sapiens with 4 samples.

Results

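The genes described here are 10 feedback inhibitors of MAPK signalling measured in RKO cells: the dual-specificity phosphatases *DUSP1*, *DUSP3*, *DUSP4*, *DUSP5*, *DUSP6*, *DUSP7* and *DUSP10*, the Sprouty genes *SPRY2* and *SPRY4*, and the Sprouty-related gene *SPRED1*. They were taken by gene symbol from a table of 15357 genes, and all 10 were present and passed the filter on low counts that left 11955 genes for testing. RKO is a BRAF-mutant line of human colon cancer cells. It was infected with lentivirus to express stably either a control shRNA (labelled vector, 2 samples) or a short hairpin RNA against CHD7 (labelled shCHD7_2, 2 samples), so that only 1 CHD7 shRNA was sequenced and both groups had been infected. CHD7 is a chromatin remodeller, and the sequencing was made to find the transcripts that change when it is depleted. Nothing in the labels says whether the 2 samples of a group came from separate cultures, and p-values then measure the spread between these samples only.

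MAPK cascades pass a signal from a growth factor receptor through RAS, RAF and MEK to ERK, and parallel cascades lead to JNK and p38. Each MAPK is active only while a threonine and a tyrosine of its activation loop are phosphorylated, and the dual-specificity phosphatases remove both phosphates. Sprouty and SPRED proteins act further upstream, on the path from the receptor through RAS to RAF. Many of these inhibitors are themselves transcribed in response to ERK, which closes a negative feedback loop, and in BRAF-mutant tumour cells the mRNAs of *DUSP6* and *SPRY4* are common readouts of ERK output. The values below are mRNA levels, and neither ERK phosphorylation nor protein was measured in these files.

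The targeted gene was checked first. *CHD7* was at 8.05 and 8.50 FPKM in the control samples and at 5.65 and 5.34 FPKM with CHD7 shRNA-2 (fragments scaled by transcript length and by library total, so that levels of different genes can be compared). Computed on counts rather than FPKM, its log2 fold change was -0.74 (SE 0.088, adjusted p = 4.2e-06 from edgeR), in the direction of the labels. On the scale of log2(FPKM + 0.1) the change of *CHD7* was smaller, at -0.58. The counts summed to between 15734679 and 16068650 per sample. Of 11 colon epithelial markers, *EPCAM*, *KRT8*, *KRT18* and *CDX2* had a mean of at least 1 FPKM, and *CDH1*, *KRT20* and *LGR5* were below it. The other 4 were not found by symbol among the 15357 genes. Fibroblast, endothelial and most leukocyte markers were near 0 or likewise not found by symbol. Exceptions were the lysosomal gene *CD68*, with a log2 fold change of 0.20 (adjusted p = 0.0624 from edgeR), and *ACTA2*. The latter, the only fibroblast marker that passed the filter on low counts, rose from 2.14 to 3.78 CPM on average. Its log2 fold change was 0.82 (adjusted p = 0.0258 from edgeR). *CD3D*, *CD14*, *LYZ* and *ITGAM* were below 1 FPKM, and with *CD68* they summed to 529.7 and 495.2 FPKM under control shRNA and to 602.4 and 611.4 FPKM after knockdown. The summed level of the 4 fibroblast markers in the table was 1.53 and 1.34 FPKM in the control samples and 2.31 and 2.76 FPKM with CHD7 shRNA-2, and the part of either sum in the results below was not tested.

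Of the 10 genes, *DUSP5*, *DUSP6* and *SPRY2* rose after CHD7 knockdown, by 1.82-fold, 1.61-fold and 1.85-fold, and the other 7 did not pass the test. None of the 10 fell: at an unadjusted p under 0.05 in edgeR, 4 were higher and 0 lower, and DESeq2 passed 3 higher and 0 lower. A gene passed at an adjusted p under 0.05 in edgeR's quasi-likelihood test fitted over all genes, and was called when its fold change was also at least 1.5, the threshold of the study. All 3 genes that passed were also called. Over all genes tested, 4.94% passed as higher and 6.54% as lower, and 1.51% were called higher and 1.37% called lower. The median log2 fold change of the 10 genes was 0.098, against 0.00037 for all genes tested. The 10 genes were chosen with earlier results of these data known, so these comparisons with all genes give no independent evidence. The 2 groups did not overlap in 6 of the 10 genes, and they did not overlap in 53.7% of all genes tested. Because RNA came from whole cultures, fewer cells expressing a gene and less of its mRNA per cell cannot be told apart. A permutation of 2 samples against 2 cannot give a two-sided exact p below 0.333, so each gene was judged only within the fit across all genes.

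**Figure D1:**
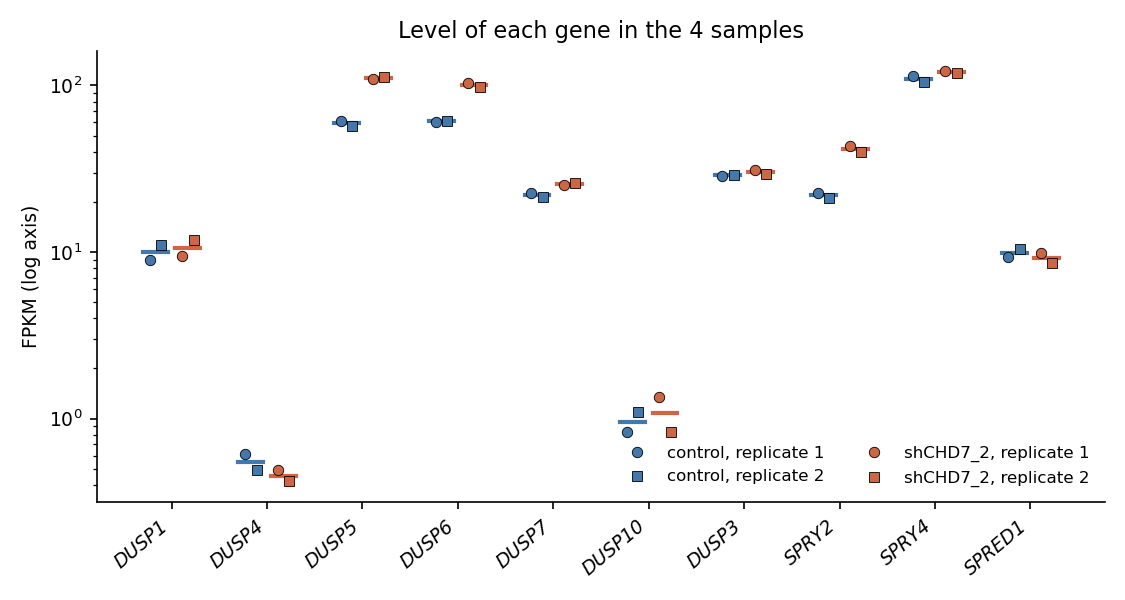
FPKM of the 10 genes on a log axis in each of the 4 samples, with control samples in blue, CHD7 shRNA-2 samples in orange, replicate 1 as circles, replicate 2 as squares and the group mean as a bar. The orange points of *DUSP5*, *DUSP6* and *SPRY2* lie well above the blue ones, while *DUSP4* and *DUSP10* lie near 1 FPKM or below it in all samples.

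Promoter sequences of *DUSP6*, *SPRY2* and *DUSP1* are shown first. The promoter windows run from 250 bases before to 50 bases after a RefSeq start site on GRCh38.p14, and windows were found for 8 of the 10 genes, not for *DUSP4* and *DUSP5*. Those of *DUSP6* and *SPRY2* are shown because both genes rose, and that of *DUSP1* because it is the best-known immediate-early phosphatase of the group and stayed near its control level. Capitals mark matches to the motifs named after the sequences. The window of *SPRY2* is the most upstream of its 3. The window of *DUSP6* is on chr12:89352452-89352751, that of *SPRY2* on chr13:80341077-80341376 and that of *DUSP1* on chr5:172771146-172771445, all on the minus strand and printed 5′ to 3′.
DUSP6: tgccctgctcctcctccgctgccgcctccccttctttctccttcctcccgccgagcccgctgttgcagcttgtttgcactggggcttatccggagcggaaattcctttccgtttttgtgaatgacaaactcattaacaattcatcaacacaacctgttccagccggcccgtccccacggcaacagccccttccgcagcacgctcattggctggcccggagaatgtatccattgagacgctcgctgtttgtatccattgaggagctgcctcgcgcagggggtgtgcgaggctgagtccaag
SPRY2: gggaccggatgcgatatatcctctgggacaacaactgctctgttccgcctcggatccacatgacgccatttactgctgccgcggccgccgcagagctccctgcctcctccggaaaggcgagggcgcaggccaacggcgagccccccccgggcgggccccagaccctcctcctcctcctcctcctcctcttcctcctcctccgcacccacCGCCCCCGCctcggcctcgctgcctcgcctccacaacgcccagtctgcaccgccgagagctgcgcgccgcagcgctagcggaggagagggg
DUSP1: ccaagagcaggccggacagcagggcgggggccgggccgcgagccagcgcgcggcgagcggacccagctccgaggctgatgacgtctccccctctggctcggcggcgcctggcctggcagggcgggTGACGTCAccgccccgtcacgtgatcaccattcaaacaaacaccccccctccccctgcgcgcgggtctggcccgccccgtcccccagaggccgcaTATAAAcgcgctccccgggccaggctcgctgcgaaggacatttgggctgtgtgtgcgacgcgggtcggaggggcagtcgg

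Both strands were searched for the cyclic AMP response element TGACGTCA, the ETS word CCGGAAG, the AP-1 words TGACTCA and TGAGTCA, the EGR words GCGGGGGCG and GCGTGGGCG, the CIC words TGAATGAA and TGAATGGA, the TATA word TATAAA, and, by name, the CArG box of SRF and the p53 recognition unit. *DUSP1* holds TGACGTCA, which is present in 1.85% of 35116 windows, and TATAAA, present in 11.5%. *SPRY2* holds an EGR word, as do 5.77% of windows. The *DUSP6* window holds none of these words as spelled. Variant forms of the spelled words, those of CIC included, were not searched, so sites of these factors may still be present. The p53 unit was found among the windows of the group only in that of *DUSP7*, against 6.63% of all windows. No window of the group holds the ETS, AP-1, CIC or CArG words, which are present in 10.3%, 4.95%, 2.63% and 1.29% of all windows. The GC box GGGCGG, not marked by capitals of its own, is present in 9 of the 11 windows of the group and in 45.0% of all windows. It occurs 4 times in the *DUSP1* window, overlaps the EGR word of *SPRY2* and is absent from *DUSP6*. The GC content was 58.3% in *DUSP6*, 71.0% in *SPRY2* and 73.3% in *DUSP1*, with a median of 58.7% over all windows.

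The nuclear phosphatase DUSP5 is specific for ERK and can also hold it in the nucleus. Its gene, on chromosome 10 from 110497838 to 110511544 (GENCODE 29, GRCh38, plus strand), was at 61.4 and 57.4 FPKM in the control samples and at 109.5 and 112.9 FPKM with CHD7 shRNA-2. Both knockdown samples were thus far above both control samples, and the samples of a group lay close together. The means were 59.4 ± 2.79 (SD, n = 2) and 111.2 ± 2.39 FPKM (SD, n = 2). On the scale of TMM-scaled counts the log2 fold change was 0.86 (SE 0.076, 95% interval 0.70 to 1.02, adjusted p = 4.4e-08 from edgeR). *DUSP5* ranked 155 from the top among the log2 fold changes of all genes tested.

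DUSP6 is the cytoplasmic counterpart, a phosphatase that binds and inactivates ERK. *DUSP6*, on chromosome 12 from 89347232 to 89353271 (minus strand), was at 60.6 and 61.0 FPKM in the control samples and at 103.2 and 98.4 FPKM with CHD7 shRNA-2. The gap between the groups was again many times the gap within either of them. From a mean of 60.8 ± 0.255 (SD, n = 2) to one of 100.8 ± 3.44 FPKM (SD, n = 2), the log2 fold change in counts was 0.69 (SE 0.073, 95% interval 0.54 to 0.84, adjusted p = 8.8e-07 from edgeR). It ranked 242 among all genes tested. The study counts *DUSP6* among the targets of p53 and also reported its rise after CHD7 knockdown by real-time RT-PCR. An antisense gene overlaps *DUSP6* in GENCODE 29, and the strand setting of the counting is not given in the sources used here, so reads of the pair could not be told apart.

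Sprouty proteins are induced by growth factors and limit signalling between the receptor and RAF. *SPRY2*, on chromosome 13 from 80335976 to 80340951 (minus strand), was at 22.6 and 21.2 FPKM in the control samples and at 43.1 and 39.9 FPKM with CHD7 shRNA-2. The fold was close to that of *DUSP5*, and the samples of the groups did not overlap. The means were 21.9 ± 1.02 (SD, n = 2) and 41.5 ± 2.28 FPKM (SD, n = 2), with a log2 fold change in counts of 0.89 (SE 0.088, 95% interval 0.70 to 1.07, adjusted p = 2.7e-07 from edgeR) and rank 149. The 3 genes kept these calls in 13 of 14 alternative settings, each fit without 1 sample included. In limma on unfiltered log2(FPKM + 1) their adjusted p were 0.107, 0.107 and 0.109, and 8 of 15357 genes passed in all.

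**Figure D2:**
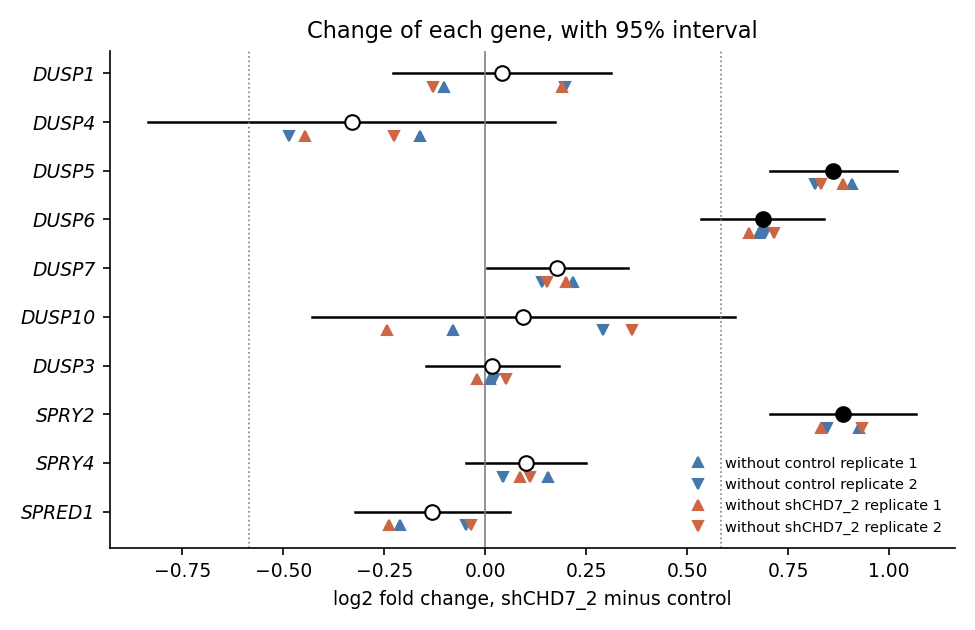
Log2 fold change (CHD7 shRNA-2 minus control) of each gene with its 95% interval from edgeR, filled where the adjusted p was under 0.05; dotted lines mark a fold of 1.5, and triangles below each gene are the values without 1 sample. The triangles of *DUSP5*, *DUSP6* and *SPRY2* stay beyond the dotted line, and those of *DUSP1*, *DUSP3* and *DUSP10* fall on both sides of 0.

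Among the 10, the closest relatives of these genes gave smaller differences. *SPRY4*, the other Sprouty gene of the group, on chromosome 5 from 142310427 to 142326455, was the most abundant of the 10 in both groups. It was at 113.7 and 104.4 FPKM in the control samples and at 121.7 and 119.6 FPKM with CHD7 shRNA-2. The groups did not overlap, but the log2 fold change was 0.10 (95% interval -0.047 to 0.25, adjusted p = 0.407 from edgeR), which leaves room for a rise of up to 1.19-fold. The ratio of *SPRY2* to *SPRY4* FPKM was 0.199 and 0.203 in the control samples and 0.354 and 0.334 with CHD7 shRNA-2. Within the same libraries, *SPRY2* therefore gained on *SPRY4* in both knockdown samples. The antisense gene *SPRY4-AS1* overlaps *SPRY4*.

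*DUSP7*, on chromosome 3 from 52048919 to 52056550, encodes the phosphatase most like DUSP6. It was at 22.6 and 21.4 FPKM in the control samples and at 25.3 and 26.0 FPKM with CHD7 shRNA-2. Without overlap between the groups, the log2 fold change was 0.18 (95% interval 0.0034 to 0.35), and its unadjusted p of 0.046 became an adjusted p of 0.186 in edgeR. The ratio of *DUSP6* to *DUSP7* FPKM was 2.68 and 2.85 in the control samples and 4.08 and 3.78 with CHD7 shRNA-2. With the replicate numbers crossed in a block, a setting chosen after the data were seen, *DUSP7* passed with an adjusted p of 0.0088 in edgeR.

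The remaining nuclear phosphatases acting on ERK, JNK and p38 were lower in level. *DUSP1*, on chromosome 5 from 172768090 to 172771195 and overlapped by an antisense gene, is rapidly induced by stress and mitogens. It was at 9.0 and 11.04 FPKM in the control samples and at 9.49 and 11.7 FPKM with CHD7 shRNA-2. Replicate 2 was higher than replicate 1 in both groups, and the groups overlapped almost fully. The 95% intervals of the counts, which cover counting error only, ran from 233.1 to 297.8 and from 295.4 to 367.6 in the control samples. The log2 fold change was 0.041 (95% interval -0.23 to 0.31, adjusted p = 0.882 from edgeR), and without 1 sample it ran from -0.13 to 0.20.

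*DUSP4*, on chromosome 8 from 29333064 to 29350668, encodes another nuclear phosphatase of ERK and JNK. It was counted 53 and 43 times in the control samples and 42 and 36 times with CHD7 shRNA-2, or 0.610 and 0.490 against 0.490 and 0.420 FPKM. Its TMM-scaled counts did not overlap between the groups, but its FPKM met at the edge. The log2 fold change was -0.33 (95% interval -0.83 to 0.17, adjusted p = 0.428 from edgeR), an interval that holds both a fall of over 1.5-fold and a small rise.

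*DUSP10*, on chromosome 1 from 221701424 to 221742176, encodes a phosphatase that prefers JNK and p38 to ERK. It had 38 and 50 counts in the control samples and 58 and 38 with CHD7 shRNA-2. The highest and a joint lowest value thus belonged to the same group, and the sign of the change depended on which sample was left out, from -0.24 to 0.36. In all 4 samples the log2 fold change was 0.094 (95% interval -0.43 to 0.62, adjusted p = 0.856 from edgeR).

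*DUSP3*, on chromosome 17 from 43766121 to 43778988, encodes a small atypical phosphatase without the MAPK-binding domain of the others. It was at 28.8 and 28.9 FPKM in the control samples and at 30.9 and 29.2 FPKM with CHD7 shRNA-2. Its log2 fold change had the narrowest bounds around 0 of the phosphatases that did not pass, at 0.018 (95% interval -0.15 to 0.18, adjusted p = 0.919 from edgeR).

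*SPRED1*, on chromosome 15 from 38252326 to 38357249, encodes a protein that binds neurofibromin and brings it to RAS at the membrane. It was at 9.29 and 10.4 FPKM in the control samples and at 9.92 and 8.56 FPKM with CHD7 shRNA-2. The groups overlapped, and the log2 fold change was -0.13 (95% interval -0.32 to 0.060, adjusted p = 0.403 from edgeR). *SPRED1* and *DUSP4* were the only members with a negative log2 fold change in the fit of all 4 samples, and neither passed.

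The order of the levels shifted with these changes. In control samples *SPRY4* came first by mean FPKM, followed by *DUSP6* and *DUSP5*, whose ranges overlapped. Next were *DUSP3*, then *DUSP7* and *SPRY2* with overlapping ranges, *DUSP1* and *SPRED1* with overlapping ranges, *DUSP10*, and last *DUSP4*. With CHD7 shRNA-2, *DUSP5* stood above *DUSP6* and *SPRY2* moved above *DUSP3* and *DUSP7*, in each case with ranges that did not overlap. Only *DUSP1* and *SPRED1* still overlapped as neighbours. *SPRY4*, *DUSP5* and *DUSP6* were higher than at least 93.7% of all genes in the table, and *DUSP4* than 25.5%. Summed over the 10 genes, the level was 329.4 and 317.2 FPKM in the control samples and 455.1 and 447.5 FPKM with CHD7 shRNA-2. *DUSP5*, *DUSP6*, *SPRY2* and *SPRY4* together held 78.4% and 76.9% of that sum under control shRNA and 83.0% and 82.8% of it after knockdown.

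**Figure D3:**
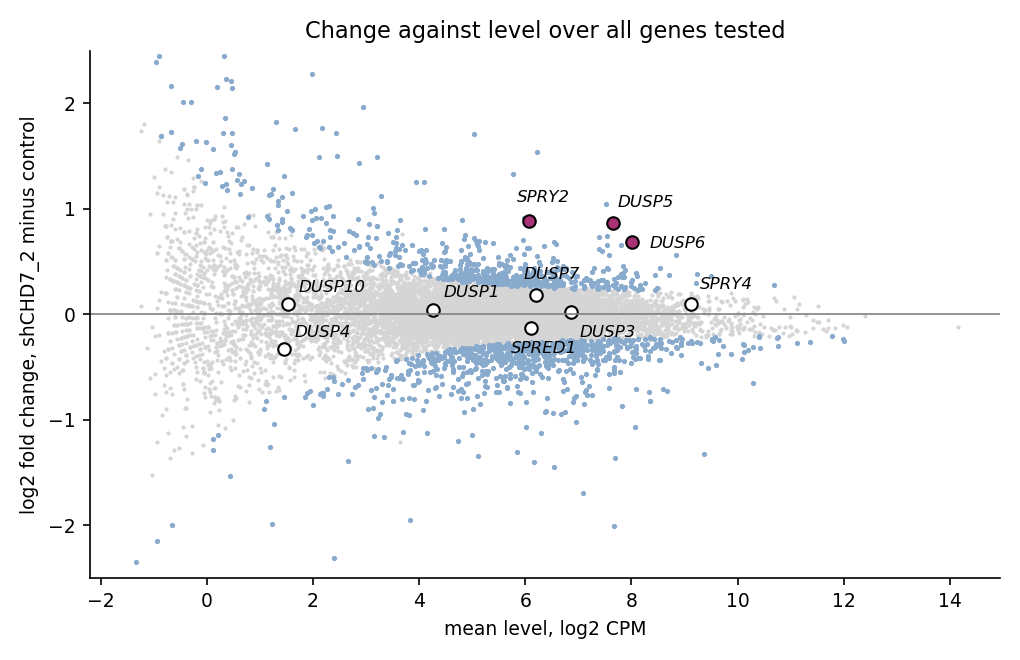
Log2 fold change against mean level in log2 CPM for all genes tested, grey where they did not pass and blue where they passed, with the 10 genes as large circles, filled purple where they passed. *DUSP5*, *DUSP6* and *SPRY2* lie above most genes of like abundance, and 13 genes lie outside the vertical axis.

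Messages of immediate-early inhibitors are often short-lived, and AU-rich words in the 3′ UTR are a known mark of that. In the longest 3′ UTR of each gene in GENCODE 29, the word TATTTAT was found 3 times in *DUSP1*, 2 times in *SPRY2*, 4 times each in *SPRY4* and *DUSP4*, 5 times in *SPRED1*, and 1 time each in *DUSP3* and *DUSP7*. *DUSP5*, *DUSP6* and *DUSP10* held none, so the 3 genes that rose did not share it. The word is present in 35.3% of the 11691 genes that were tested and have an annotated 3′ UTR. As many copies as in *DUSP1* were found in 0.957% of genes whose 3′ UTR was within 1.25-fold of its length, and as many as in *SPRY2* in 5.67%. The shares were close to the latter for *SPRY4* (6.20%), *SPRED1* (6.86%) and *DUSP4* (6.88%), which did not pass the test. The sites of *SPRY2* and the first of *DUSP1* are shown with their neighbouring bases, the word in capitals.
SPRY2 site 1: tgtaaagaaTATTTATttgaagttt
SPRY2 site 2: aaaaaagaaTATTTATtttaagagg
DUSP1 site 1: gctggtcctTATTTATttaacttca

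A set of 3 overlapping words, AGCTATT, then GAAGCTA and lastly GCTATTA, was looked up as well, because an earlier scan of these data had tied them to lower expression after CHD7 knockdown. The words were thus chosen on the same fold changes and give no independent evidence here. At least 1 of them is present in 22.4% of tested genes with a 3′ UTR, and in 3 of the 10 genes, a share near that background. *DUSP4*, *DUSP7* and *DUSP10* held AGCTATT, and none of the 10 held the other words of the set. *DUSP5*, *DUSP6* and *SPRY2* held none of them. The sites of *DUSP7* and *DUSP10* are printed with the word in capitals.
DUSP7: caaacaggcAGCTATTgaaatgtgg
DUSP10: ttccttttaAGCTATTtgtagagtt

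The other genes of the pathway were grouped in 8 lists by role. Of the 153 genes listed, 138 were tested, 5 passed as higher and 10 as lower, and their median log2 fold change was 0.010. Without control replicate 1 only 5 of these genes passed in all and without control replicate 2 only 6, while 7 passed in DESeq2. Among 13 other dual-specificity phosphatases tested, *DUSP22* rose with a log2 fold change of 0.49 (adjusted p = 0.0085 from edgeR) and *STYXL1* with 0.31 (adjusted p = 0.0401 from edgeR), while the other 11 did not pass. Over all 13, these 2 included, 3 were higher at an unadjusted p under 0.05 in edgeR and 0 lower, and DESeq2 passed 0. *STYXL1* encodes a relative that lacks phosphatase activity. The median of this list was 0.16. Among these 11 were *DUSP2*, *DUSP8* and *DUSP16*, which like *DUSP1* and *DUSP10* encode MAPK phosphatases, at 0.20, 0.16 and 0.086 on the log2 scale (adjusted p = 0.340, 0.500 and 0.640 from edgeR). These 3 genes were named after their values were seen.

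Of 19 other inhibitors of receptors and RAS, 3 fell and 1 rose in edgeR, with a median of -0.031. DESeq2 passed 2 of this list as lower and 0 as higher, and 5 were lower and 2 higher at an unadjusted p under 0.05 in edgeR. *RASA1*, a GTPase-activating protein of RAS, fell with a log2 fold change of -0.46 (adjusted p = 4.6e-04 from edgeR). *CBL*, a ubiquitin ligase for receptor tyrosine kinases, fell with -0.36, and *ERRFI1*, which binds and inhibits the EGF receptor, with -0.26. *RASAL1*, outside the naming rule, had 9 and 9 counts in the control samples and 19 and 25 with CHD7 shRNA-2 (log2 fold change 1.25, adjusted p = 0.0439 from edgeR). Upstream, 2 of 15 ligands and receptors rose, none fell in edgeR or DESeq2 or at an unadjusted p under 0.05 (6 higher, 0 lower), and the list's median was 0.10. *TGFA*, a ligand of the EGF receptor, went from 0.540 and 0.660 FPKM to 2.13 and 1.94 FPKM (log2 fold change 1.72, adjusted p = 2.2e-06 from edgeR). *HGF*, the ligand of the MET receptor, went from 183.0 and 187.3 FPKM to 241.4 and 224.3 FPKM (log2 fold change 0.30, adjusted p = 0.0102 from edgeR). The level of *HGF* is given as deposited. It rests on an implied length of 2861 bases, which need not equal the full length of a transcript. The longest transcript of the gene in GENCODE 29 has 5987 bases, and which transcripts the reads came from was not tested.

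Within the RAS-RAF-MEK-ERK core, 20 of 21 genes did not pass, and *RRAS2*, a RAS-related GTPase, fell with a log2 fold change of -0.69 (adjusted p = 1.2e-05 from edgeR). The median of the core was 0.033. Of 22 other genes that respond to ERK, none rose in edgeR or DESeq2, though 2 were higher and 7 lower at an unadjusted p under 0.05. *FOSL2* fell with -0.60 and *EGR1* with -0.30 (adjusted p = 0.0054 and 0.0160 from edgeR), and the median of the list was -0.075. Several genes often read together with *DUSP6* and *SPRY2* as ERK output did not pass, and they were named after their values were seen. *ETV4* and *ETV5*, ETS factors induced by ERK, were at -0.24 and -0.12 on the log2 scale (adjusted p = 0.0896 and 0.399 from edgeR). *PHLDA1* was at -0.0045, *FOSL1* at -0.20 and *CCND1*, which encodes cyclin D1, at 0.22 (adjusted p = 0.979, 0.0991 and 0.0727 from edgeR). *IER5*, named likewise, had the highest value of the list, at 0.34 (adjusted p = 0.0572 from edgeR). By sign alone, 8 of the 22 genes were higher and 14 lower. The sign thus differed among genes of this list, and no gene of it passed in the direction of the 3 members that rose.

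The stress cascades did not pass in any of 25 JNK, p38 and ERK5 kinases in edgeR, or in DESeq2 (0 higher and 2 lower at an unadjusted p under 0.05). Their median was -0.0022, and the most abundant of them, *MAPKAPK3*, a kinase activated by p38, was at 0.034. Of 15 transcription factors downstream of MAPK, 3 fell and none rose in edgeR, with a median of -0.055, while 1 was higher at an unadjusted p under 0.05 and DESeq2 passed 0. They were the related CREB-type factors *CREB1* and *ATF1*, at -0.30 and -0.29, and *ATF2*, at -0.30 (adjusted p = 0.0449, 0.0403 and 0.0396 from edgeR). Among 8 proteins that bind AU-rich RNA, *TIA1* fell with -0.28 (adjusted p = 0.0317 from edgeR), 7 did not pass, DESeq2 passed 0, and the median was -0.0075.

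**Figure D4:**
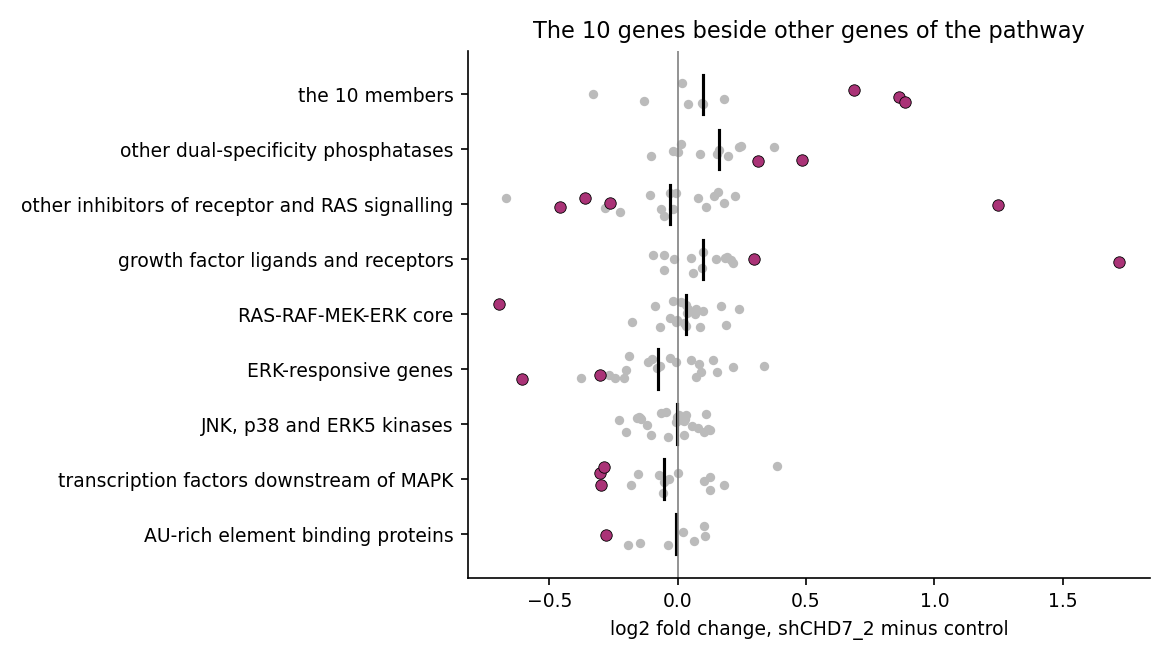
Log2 fold change (CHD7 shRNA-2 minus control) of the 10 genes and of the tested genes in each of the 8 pathway lists, 1 point a gene, purple where the adjusted p was under 0.05 and grey elsewhere, with the median of each list as a vertical bar. The 3 purple points of the 10 genes lie between 0.69 and 0.89, and the list of ERK-responsive genes has purple points only below 0.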

How the data were processed

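RNA-seq of polyadenylated RNA was analysed in 2 RKO samples with control shRNA and 2 with CHD7 shRNA-2, grouped by sample title. The authors deposited an estimated count per gene and sample and the matching FPKM values. Per the labels, the submitters' processing notes name Bowtie2, RSEM, DESeq2 and hg38; annotation, filters and strand setting are not given in the sources used here. Between 13.6% and 14.7% of counts were not whole, so reads shared by similar genes may have been divided.

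Counts were rounded, filtered with filterByExpr (minimum count 10), scaled by TMM and tested with edgeR 4.0.16 in R 4.3.3 (quasi-likelihood test, Benjamini-Hochberg over 11955 genes), after a check on simulated data. CPM values use TMM-scaled library sizes. SEs come from the quasi-likelihood F. Alternatives were other scalings and filters, a replicate block, DESeq2 1.42.0, limma 3.58.1 on log2(FPKM + 1) or log2(FPKM + 0.1), which understates changes of low genes, and leaving out each sample, where a lone sample is assumed to vary like the other group. Replicates differed by more than counting noise (chi-square per gene 3.94 and 6.05).

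The members and lists were chosen with earlier results of these data known. Named beside the members were, per list, up to 3 passing genes with the smallest p, or the most abundant gene where none passed. Motifs and 3′ UTR words were searched in Python 3.11.15.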

Additional observations from a re-analysis of the deposited data

How the results depend on the processing

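The counts of 3 genes that passed and were called were kept in 12 of 13 other settings chosen at the outset, each fit without 1 sample included (range 3 to 3), and fell to 0 and 0 in limma on unfiltered log2(FPKM + 1), where *CHD7* was at -0.51 and did not pass. The cause was not tested. The 15 passing pathway genes became 2 without a filter on low counts, 7 in DESeq2, 9 in limma on filtered FPKM with either pseudocount, 0 in limma without a filter, and between 5 and 20 without 1 sample. Leaving out 1 sample turned the sign of *DUSP1* (-0.13 to 0.20), *DUSP10* (-0.24 to 0.36) and *DUSP3* (-0.021 to 0.052), none of which passed.

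Same-numbered samples did not deviate together (correlation -0.181 across genes, which are not independent replicates). With the replicate block, 3 of the 10 genes passed, as did 7 pathway genes. With the crossed pairing, chosen after the data were seen, 4 and 44 passed, *DUSP7* among the former at 0.18. With 2 samples a group and about 40 counts, *DUSP4* and *DUSP10* could show only large changes.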

Other observations

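Counts divided by FPKM give an implied length for a gene in a sample, which need not equal the full length of a transcript. It follows the mix of annotated transcripts to which the authors' program assigned reads. For *DUSP6*, whose coding transcripts in GENCODE 29 run up to 4400 bases and include one of 1959, this length was 3222 and 3218 bases in the control samples and 3220 and 3226 with CHD7 shRNA-2. For *SPRY2*, with coding transcripts of 2708 and 2111 bases, it was 2118 and 2129 against 2127 and 2137 bases. For *DUSP5*, whose coding transcript has 2557 bases, it was 2369 and 2364 against 2364 and 2372 bases. The implied length can thus fall short of the annotated transcript, and it does not give the mix of transcripts directly. The length thus differed by under 1% between samples for these 3 genes. For *CHD7* it was 10469 and 10514 bases in the control samples and 10002 and 9499 with CHD7 shRNA-2. FPKM values were deposited with 2 decimals, which limits this length for genes of low level such as *DUSP10*.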
